A study of Mus musculus with 24 samples.

Results

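How far mice of 1 group differed from each other in kidney gene expression was measured in renal cortex from 24 mice of the strain C57BL/6, 6 in each of 4 groups. The members are the 14082 genes, of 48526 in the count table, with a mean of at least 1 CPM (counts scaled to a common library size) over all 24 libraries, and 24 of 24 libraries entered. For each gene the variance of log2 CPM between the 6 libraries of a group was computed. It is given here as its square root, the standard deviation (SD) between mice. The group means are not compared for their own sake.

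The non-diabetic vehicle group received citrate injections and plain drinking water. The non-diabetic PMX-53 group received citrate and 2 mg/kg PMX-53, a peptide inhibitor of the complement C5a receptor C5aR1, in the drinking water. The diabetic vehicle group received 55 mg/kg streptozotocin (STZ), a toxin of the insulin-producing beta cells, by intraperitoneal injection on 5 days, and then plain water. The diabetic PMX-53 group received the same STZ course and then PMX-53. Injections began at 6 weeks of age, and the mice were followed for 24 weeks on the same chow. No genetic alteration is named for any group. The sources used here state neither the sex of the mice nor the time of day at which the kidneys were taken. The labels name 24 separate samples, and part of the spread between them may be technical.

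Spread between mice of 1 strain carries information because some kidney programmes follow signals that change by the hour or differ between individuals. Proximal tubule cells, which make up most of the cortex, oxidise fatty acids under the nuclear receptor PPAR-alpha when a mouse fasts. They follow glucocorticoids and the circadian clock over the day, and take on a male pattern of transporters and cytochromes P450 under androgens. Targets of 1 such signal can then vary together between mice of a group.

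The promoters of 3 genes whose programmes are described below are printed with short motifs linked to these inputs. They cover the 250 bases before the RefSeq transcript start on GRCm38.p6, written 5′ to 3′ on the strand of the gene. Ciart, a repressor of the clock, lies at the minus strand of chromosome 3 (chr3:95882229-95882478), with capitals on the E-box CACGTG that the clock proteins BMAL1 and CLOCK bind. Cyp4b1, an androgen-responsive cytochrome P450, lies at the minus strand of chromosome 4 (chr4:115647722-115647971), with capitals on the reverse complement of AGAACA, the core of the androgen and glucocorticoid response element. Plin2, which coats lipid droplets, lies at the minus strand of chromosome 4 (chr4:86670060-86670309), with capitals on the reverse complement of AGGTCA, the core hexamer of PPAR and other nuclear receptor sites.
Ciart: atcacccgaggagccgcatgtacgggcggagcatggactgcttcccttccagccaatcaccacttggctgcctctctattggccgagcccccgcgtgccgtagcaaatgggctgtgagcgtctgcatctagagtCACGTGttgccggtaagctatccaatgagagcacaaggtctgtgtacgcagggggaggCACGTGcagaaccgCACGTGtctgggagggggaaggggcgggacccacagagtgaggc
Cyp4b1: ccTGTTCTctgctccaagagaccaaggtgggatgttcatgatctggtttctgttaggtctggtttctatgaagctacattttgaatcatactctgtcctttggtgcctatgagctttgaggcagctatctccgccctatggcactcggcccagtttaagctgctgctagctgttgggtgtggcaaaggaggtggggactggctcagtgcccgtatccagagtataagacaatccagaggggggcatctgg
Plin2: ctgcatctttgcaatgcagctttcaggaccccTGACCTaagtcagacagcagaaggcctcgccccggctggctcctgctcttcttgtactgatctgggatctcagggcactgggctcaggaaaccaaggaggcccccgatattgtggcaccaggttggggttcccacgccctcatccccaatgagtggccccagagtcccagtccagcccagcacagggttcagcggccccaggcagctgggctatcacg

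In Ciart the 3 matches begin 116, 58 and 44 bases before the start. Both strands were searched, and the letters of the 3 motifs do not overlap. Of 19 clock genes, 16 matched the table with 21 promoters, and 6 of these (28.6%) held CACGTG, against 6.02% of all 32851 promoters. Of 14 male-biased genes, 11 matched with 13 promoters, and 1 (7.69%) held AGAACA, against 16.1% of all. That 1 promoter is the one of Cyp4b1, so its match does not stand for the list. Of 20 PPAR-alpha targets, 13 matched with 13 promoters, and 4 (30.8%) held AGGTCA, against 14% of all. These matches describe letters in a window and no binding was measured.

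The libraries held 10964992 to 22000895 counts. All 8 markers of the proximal tubule segments S1 and S2 were among the genes described. Of the 8 T cell markers and the 8 skeletal muscle markers 0 reached a mean of 1 CPM over the 24 libraries, the highest single value was 1.92 CPM, of the T cell marker Thy1, and the muscle myosins Myh4 and Myh2 had 0 counts in all. Mitochondrially encoded genes took 22.6% ± 1.65, 22.9% ± 1.51, 29.5% ± 2.14 and 25.8% ± 2.56 of the counts in the non-diabetic vehicle, non-diabetic PMX-53, diabetic vehicle and diabetic PMX-53 groups (SD, n = 6 each). Urothelial markers summed to 21.6 CPM in non-diabetic PMX-53 replicate 6, against 0.579 to 1.22 CPM in the other 5 libraries of that group, and to 1.85 to 10.2 CPM in diabetic vehicle libraries.

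Diabetic vehicle replicate 4 stood apart from its group. The other 5 diabetic vehicle libraries and the 6 diabetic PMX-53 libraries did not overlap in 2134 of the 14082 genes. In 1180 of these (55.3%) replicate 4 lay nearer the diabetic PMX-53 mean. For each other diabetic library, over its own set of 1314 to 1658 such genes, the share nearer the opposite group lay between 6.70% and 26.1%. Each set was chosen with the library in question left out of its group, so the sets differ. In other genes replicate 4 matched its label. Nnt, which encodes a mitochondrial transhydrogenase, had 256 CPM in it and 243 to 273 CPM in the group, against 101 to 121 CPM in the 18 libraries of the other groups. Wdfy1 had 66.8 CPM in it, against 25.9 to 33.2 CPM outside the group, and Acad10 had 16.4 CPM, against 56.9 to 82.7 CPM. These 3 genes, chosen after their values were seen, set all 6 diabetic vehicle libraries apart from all others. Nnt is known to differ between substrains of C57BL/6, the labels name no substrain, and a substrain of that group and diabetes on plain water cannot be told apart here. For some results that rest on replicate 4, values without it are given as well. Others are given only with it, among them Slco1a1, Acsm3, Pzp and Ugt1a2 with diabetes on vehicle. The same holds for the main axis of the diabetic vehicle libraries.

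The median gene had its highest SD in the diabetic vehicle group and its lowest in the non-diabetic PMX-53 group. The median SD of a gene between 6 mice was 0.155 in non-diabetic vehicle, 0.128 in non-diabetic PMX-53, 0.164 in diabetic vehicle and 0.144 in diabetic PMX-53 libraries, in log2 CPM. Of the 14082 genes, 37.4% had their highest SD in diabetic vehicle, 28.7% in non-diabetic vehicle, 20.4% in diabetic PMX-53 and 13.4% in non-diabetic PMX-53 libraries. An SD over 1, a spread of more than 2-fold around the mean, was found for 68 genes in diabetic vehicle, 37 in non-diabetic vehicle, 38 in non-diabetic PMX-53 and 29 in diabetic PMX-53 libraries.

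Part of each SD is counting error. The SD that read counting alone would give had a median of 0.0944, 0.0884, 0.0865 and 0.0934 in the same order of groups as the medians above, and made up 42.9%, 53.3%, 32.8% and 49.2% of the variance of the median gene. The diabetic vehicle libraries were the deepest, with 18719800 counts on average, so their larger SD does not come with more counting error. With the counting variance subtracted, the median SD was 0.103 in non-diabetic vehicle, 0.0750 in non-diabetic PMX-53, 0.121 in diabetic vehicle and 0.0901 in diabetic PMX-53 libraries. Among the 1350 genes at 100 CPM or more, where counting error is smallest, the medians were 0.102, 0.0805, 0.130 and 0.105. Among the 5413 genes under 10 CPM they lay closer, between 0.223 and 0.250.

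Seen per mouse rather than per gene, the groups overlapped. The distance of a library from its group, the median over genes of its absolute difference from the mean of the other 5 libraries in log2 CPM, was 0.122 ± 0.0267 in non-diabetic vehicle, 0.102 ± 0.0126 in non-diabetic PMX-53, 0.132 ± 0.0175 in diabetic vehicle and 0.114 ± 0.0135 in diabetic PMX-53 libraries (SD, n = 6 each). The most distant were non-diabetic vehicle replicate 5 at 0.168 and diabetic vehicle replicates 4 and 1 at 0.158 and 0.144. Diabetic vehicle exceeded non-diabetic vehicle libraries by 0.0101 (exact two-sided permutation p = 0.446, adjusted over 4 comparisons 0.446). With PMX-53 the distance fell by 0.0183 in diabetic mice (exact p = 0.0714, adjusted 0.153), and it fell by 0.0204 in non-diabetic mice (exact p = 0.115, adjusted 0.153). On PMX-53 diabetic libraries exceeded non-diabetic ones by 0.0123 (exact p = 0.115, adjusted 0.153). None of the 4 passed 0.05, and 0.00216 is the smallest p that 6 against 6 allows. The 6 distances of a group share libraries and are not fully independent. Thinned to the smallest library total, the distance fell by 0.0288 with PMX-53 in diabetic mice (exact p = 0.00433), and without diabetic vehicle replicate 5 it fell by 0.0264 (exact p = 0.0216).

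**Figure D1:**
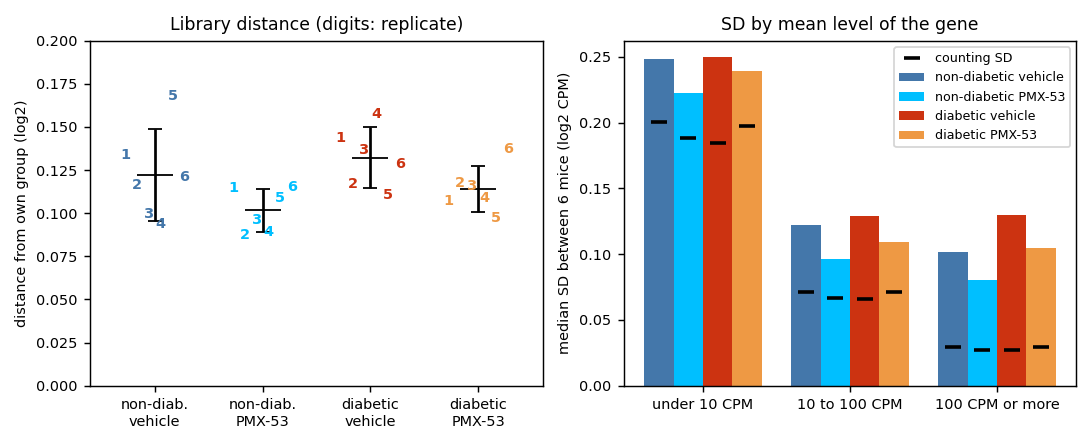
Left, distance of each of the 24 libraries from the other 5 of its group (log2, digits are replicates, bars are mean ± SD of 6); right, median SD between 6 mice in log2 CPM for genes under 10, 10 to 100 and 100 or more CPM, with black marks for the SD that counting gives. Non-diabetic vehicle replicate 5 (0.168) and diabetic vehicle replicate 4 (0.158) are the most distant, and above 100 CPM the diabetic vehicle bar (0.130) is the highest.

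With diabetes on vehicle, 54.8% of genes had the larger SD in diabetic mice, with a median log2 ratio of the SDs of 0.09. Among the largest ratios of SD were those of Kap, an androgen-regulated protein, the amino acid transporter Slc7a13, the urea cycle enzyme Ass1, the peroxisomal reductase Pecr and the phosphatase Dusp3. The difference was tested on the absolute deviation of each library from its group mean with limma over all 24 libraries. At an adjusted p under 0.05, 153 genes (1.09% of 14082) were more spread in diabetic mice and 23 (0.163%) less. On simulated data the calls of this test held a larger share of false ones than the threshold states, so single calls are uncertain. For 47 of the 153 the SD in non-diabetic vehicle mice lay below the SD that counting alone gives, against 19.4% of all genes. Dusp3 and Chst7, a sulfotransferase, were among them, with SDs of 0.0234 and 0.0804 against counting SDs of 0.0490 and 0.0866. Of the 153, 113 had the lower mean level in diabetic mice, against 48.8% of all genes. In replicate 4, 74 were farthest from the group median, and it was the farthest library for 25.6% of all genes. Without diabetic vehicle replicate 4, 90 genes passed, 77 of them more spread. Without non-diabetic vehicle replicate 1 or 2, 103 and 110 passed, and without diabetic vehicle replicate 2 or 6, 271 and 291. When deviations were taken from the median of the group, a stricter test, 4 genes passed, all with more spread, and with only the 2 groups in the fit 0 passed (limma, against 1314 more and 671 less at an unadjusted p under 0.05 in the fit of all groups).

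Kap, the kidney androgen-regulated protein and a classic readout of androgen action in the proximal tubule (chr6:133849851-133853762), had 466, 348, 1012, 5572, 425 and 146 CPM in diabetic vehicle replicates 1 to 6. The other groups were tight, at 8839 to 10827 CPM in non-diabetic vehicle, 7965 to 10408 in non-diabetic PMX-53 and 4087 to 5912 in diabetic PMX-53 libraries. Replicate 4 thus lay inside the diabetic PMX-53 range and the other 5 lay below every other library. The SD was 1.79 in diabetic vehicle against 0.124 in non-diabetic vehicle mice, a difference of 1.31 ± 0.26 (SE) in scaled absolute deviation (limma adjusted p = 0.00354). Without diabetic vehicle replicate 4 the difference was 0.631 (adjusted p = 0.00757), and without replicate 3 the adjusted p was 0.0813.

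The list of 14 male-biased and androgen-responsive genes varied as a block in diabetic vehicle mice. Its median SD there was 0.817, against 0.209 in non-diabetic vehicle, 0.193 in non-diabetic PMX-53 and 0.256 in diabetic PMX-53 libraries, and against 0.164 over all genes. That median was 5.94 times the running median SD of genes at the same level. The members rose and fell together: the median correlation between 2 members over the 6 libraries was 0.79, against about 0 for all genes. Of the 14, 13 were highest in replicate 4 and 9 lowest in replicate 6, against 21.4% and 15.9% of all genes. Of the 14, 7 passed the test with more spread in diabetic vehicle than in non-diabetic vehicle mice, against 1.09% of all genes: Kap, Slco1a1, Cyp4b1, Cyp2j13, Acsm3, Slc22a28 and Slc22a30. Without replicate 4 the median SD of the list was 0.598, the ratio 4.73 and the correlation 0.492, and 2 members passed. This list, like the others, was chosen with earlier results of these data known. Its members also share replicate 4, so the 7 calls are not independent. Their share against that of all genes is therefore no test of the list.

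Slco1a1, an organic anion transporter of the proximal tubule brush border, had 5.12, 1.95, 19.3, 123, 5.35 and 1.34 CPM in the diabetic vehicle libraries. Non-diabetic vehicle libraries had 178 to 420.0 CPM and diabetic PMX-53 libraries 93.6 to 165 CPM. Its SD was 2.35 against 0.493 in non-diabetic vehicle mice (limma adjusted p = 0.00590), the widest of the programme. Acsm3, a medium-chain acyl-CoA synthetase, had 20.4, 24.3, 95.3, 233, 19.8 and 14.4 CPM, and replicates 3 and 4 were again the highest. Cyp4b1, whose promoter is printed above, had 367, 343, 1003, 1061, 304 and 647 CPM, against 2289.8 to 3049.5 CPM in non-diabetic vehicle libraries. Here replicate 3 was nearly as high as replicate 4, and the call held with deviations from the median (SD 0.805 against 0.155, limma adjusted p = 0.0390).

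The largest ratios of SD outside that list followed the same libraries. Slc7a13, an aspartate and glutamate transporter of the S3 segment (chr4:19818725-19842218), had 32.3, 31.5, 108, 393, 54.4 and 35.4 CPM in diabetic vehicle libraries and 528 to 687 CPM in non-diabetic vehicle libraries. Its SD was 1.43 against 0.152, a difference in deviation of 1.06 (limma adjusted p = 4.45e-05), which was 0.510 without replicate 4 (adjusted p = 0.00757). Pecr, a peroxisomal enoyl-CoA reductase, had 157 and 156 CPM in replicates 3 and 4 and 82.1 to 107 in the other 4 (SD 0.408 against 0.0400, adjusted p = 0.000175). Cyp2a4, a steroid hydroxylase, had 191 CPM in replicate 4 and 44.4 to 86.8 CPM in the other 5 (SD 0.827 against 0.0952, adjusted p = 0.00671), and without that replicate its adjusted p was 0.262. The sulfotransferase Chst7 (0.720 against 0.0804, adjusted p = 0.00499) and the organic anion transporter family member Slc22a22 (0.618 against 0.0668, adjusted p = 0.00589) were also highest in replicate 4, and without it their adjusted p was 0.0699 and 0.0526. For Slc22a22 it was 0.141 without replicate 5. Markers of the S3 segment, 7 genes, summed to 2404 CPM in replicate 4 and to 981 to 1416 CPM in the other 5, so fewer S3 cells and less RNA per cell cannot be told apart in the low libraries. Dusp3, a phosphatase, differed from these genes: it had 86.2 CPM in replicate 3 and 56.6 to 65.4 CPM elsewhere in the group (SD 0.225 against 0.0234, adjusted p = 0.0381), and without replicate 3 its adjusted p was 0.494. Without any 1 of 9 other libraries, all 6 non-diabetic vehicle ones among them, it was 0.0515 to 0.0908.

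Ass1 and Slc17a3 passed also with deviations from the median. Ass1, which makes argininosuccinate for arginine synthesis in the proximal tubule, had 453, 519, 905, 800.0, 348 and 652 CPM in diabetic vehicle libraries and 1259 to 1418 CPM in non-diabetic vehicle libraries. Its SD was 0.520 against 0.0590, and the 2 ranges did not overlap (limma adjusted p = 0.0390). With deviations from the mean its adjusted p was at most 0.00141 whichever library was left out. Slc17a3, a urate and organic anion transporter, had 125, 156, 257, 352, 251 and 157 CPM against 453 to 517 CPM, with an SD of 0.565 against 0.0715 (limma adjusted p = 0.0390). Slc17a3 falls outside the rule for named genes and was picked once its values were known.

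Several genes with a higher level in diabetic vehicle mice were lowest, not highest, in replicate 4. C3, the central complement component, had 541, 291, 164, 29.6, 435 and 257 CPM in diabetic vehicle and 13.0 to 29.2 CPM in non-diabetic vehicle libraries, so that replicate 4 was the lowest. Its SD was 1.51 against 0.452, which did not pass (limma adjusted p = 0.210). Fgg, the fibrinogen gamma chain, had 99.1, 25.8, 14.0, 8.19, 56.8 and 61.3 CPM and did not pass (adjusted p = 0.0764). Ugt1a2, which shares exons with the other Ugt1a genes so that its counts are uncertain, had 343, 426, 79.6, 19.2, 281 and 297 CPM in diabetic vehicle and 1.45 to 6.03 CPM in non-diabetic vehicle libraries (SD 1.73 against 0.684, adjusted p = 0.0431). Among 23 complement genes 1 passed, against 1.09% of all genes: Cfi, the protease that inactivates C3b, with 14.1, 7.89, 3.76, 3.52, 20.9 and 11.6 CPM in diabetic vehicle libraries (SD 1.02 against 0.255, adjusted p = 0.0261). Tubular injury genes, a list that includes Havcr1, Lcn2 and Vcam1, were lowest in replicate 4 for 14 of 18 members, against 21.9% of all genes. Of these members 0 were called, against 1.09% of all genes.

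**Figure D2:**
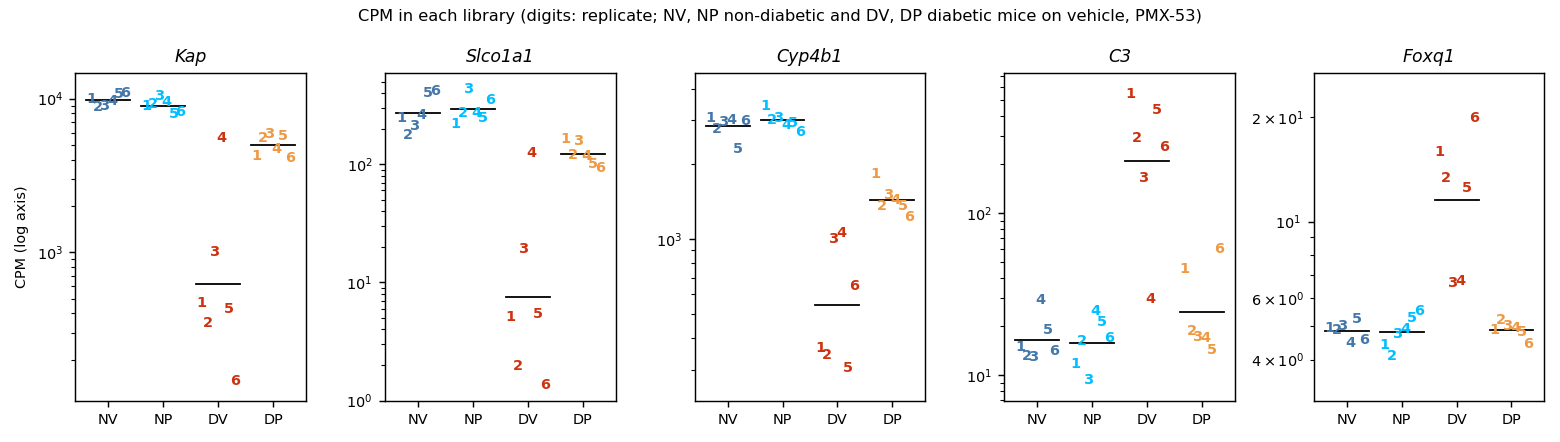
CPM on a log axis of Kap, Slco1a1, Cyp4b1, C3 and Foxq1 in each of the 24 libraries, with digits for replicates and a line at the geometric mean of 6 (NV, NP, DV, DP: non-diabetic vehicle, non-diabetic PMX-53, diabetic vehicle, diabetic PMX-53). Diabetic vehicle replicate 4 is the highest of its group for Kap (5572 CPM) and Slco1a1 (123 CPM) and the lowest for C3 (29.6 CPM).

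Less spread with diabetes was called for 23 genes, and for 17 of them the SD in diabetic vehicle mice lay below the SD that counting alone gives, which 14.3% of all genes did. Hsf1, the master regulator of the heat shock response, had 16.2 to 26.7 CPM in non-diabetic vehicle and 18.1 to 19.1 CPM in diabetic vehicle libraries (SD 0.256 against 0.0283, limma adjusted p = 0.0201). Adam22 had 6.86 and 8.82 CPM in non-diabetic vehicle replicates 1 and 2 and 11.9 to 14.8 CPM in the other 4, against 11.4 to 12.5 CPM in diabetic vehicle libraries (adjusted p = 0.000884). Akap9, an anchor of protein kinase A at the Golgi and centrosome, rested on 1 library, with 89.1 CPM in non-diabetic vehicle replicate 6 and 161 to 178 CPM in the other 5 (adjusted p = 0.0386), and without it the difference in deviation was 0.00789 in the other direction. Nhsl2 (adjusted p = 0.0350), Pqbp1 (0.0350) and Ppp1r14a (0.0456) also passed. These calls depended on libraries of both groups. Without non-diabetic vehicle replicate 5 the difference in deviation moved from -0.185 to -0.123 for Hsf1 (adjusted p = 0.0975) and from -0.233 to -0.119 for Pqbp1 (0.238). Without replicate 1 of that group it moved from -0.157 to -0.0996 for Nhsl2 (0.180) and from -0.345 to -0.213 for Adam22, which still passed (0.0296), and without its replicate 3 from -0.423 to -0.255 for Ppp1r14a (0.222). Leaving out diabetic vehicle replicate 4 gave an adjusted p of 0.0518 for Hsf1, 0.0800 for Pqbp1 and 0.101 for Ppp1r14a. Ppp1r14a did not pass without any 1 of diabetic vehicle replicates 2 to 6 (0.0587 to 0.101), nor Nhsl2 without any 1 of replicates 1 to 3 (0.0506 to 0.0659).

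In diabetic mice most genes had the smaller SD on PMX-53. The SD was larger on PMX-53 for 39.0% of genes, with a median log2 ratio of -0.20. By limma, 76 genes (0.54% of 14082) were less spread on PMX-53 and 9 (0.0639%) more. Both this comparison and the previous one use the diabetic vehicle libraries, so a gene with a wide spread there can pass in both. Of the 76 genes, 39 were farthest from the diabetic vehicle median in replicate 4. For 24 of the 76 the SD on PMX-53 lay below the counting SD, as for 21.8% of all genes. Without diabetic vehicle replicate 4, 62 genes passed in all. Without diabetic vehicle replicate 2, 3, 5 or 6, 170, 132, 167 and 164 passed, and without diabetic PMX-53 replicate 6, 133. With deviations from the median 6 passed, all with less spread, and with only the 2 groups in the fit 0 passed (limma, against 412 more and 1295 less at an unadjusted p under 0.05 in the fit of all groups).

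Foxq1, a forkhead transcription factor (chr13:31556134-31560976), had 15.8, 13.4, 6.63, 6.72, 12.5 and 19.8 CPM in diabetic vehicle libraries and 4.42 to 5.18 CPM in diabetic PMX-53 libraries. Replicates 3 and 4 were the lowest of the vehicle group, and the 2 groups did not overlap. Its SD was 0.644 against 0.0753, with the second below the counting SD of 0.167 (limma adjusted p = 8.73e-05). Arrdc2, an arrestin domain protein, had 62.0, 66.0, 19.1, 12.7, 9.24 and 44.0 CPM on vehicle and 7.65 to 10.4 CPM on PMX-53. It was high in replicates 1, 2 and 6 and near the PMX-53 range in replicate 5, and it passed also with deviations from the median (SD 1.21 against 0.147, adjusted p = 0.0353). Arhgef3, a guanine nucleotide exchange factor, was also high in replicates 1, 2 and 6, with 72.7, 70.6, 56.0, 43.1, 49.1 and 64.9 CPM against 39.0 to 42.0 CPM, and lowest in replicate 4 (adjusted p with deviations from the median 0.0450).

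Cdc37l1 and Slc34a3, outside the rule and chosen after their values were seen, passed that stricter test as well. Cdc37l1, a cochaperone, had 85.7, 99.3, 49.2, 37.2, 40.8 and 64.5 CPM on vehicle and 31.7 to 37.7 CPM on PMX-53 (limma adjusted p = 0.0415). Slc34a3, the sodium phosphate cotransporter NaPi-IIc of the proximal tubule, had 7.29, 12.1, 40.9, 32.0, 16.3 and 37.9 CPM on vehicle and 35.1 to 46.9 CPM on PMX-53 (limma adjusted p = 0.0337). Its replicates 3 and 6 lay inside the PMX-53 range and replicates 1, 2 and 5 far below it. Cyp4b1, with 1224 to 1813 CPM on PMX-53, was also among the 6 (adjusted p = 0.0450).

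Of the 14 male-biased genes, 7 were less spread on PMX-53, against 0.54% of all genes, and 3 passed without diabetic vehicle replicate 4. Here too the list was chosen with earlier results known, so these shares are no test of the list. Kap itself had an SD of 0.229 on PMX-53 against 1.79 (limma adjusted p = 0.0117), and 0.128 was its adjusted p without diabetic vehicle replicate 3. Without replicate 4 its difference in deviation went from -1.20 to -0.520 (adjusted p = 0.0490). Ugt1a2 had 3.35 to 5.15 CPM on PMX-53 (SD 0.223, adjusted p = 0.00365), and without replicate 4 its difference in deviation went from -1.32 to -0.554 (adjusted p = 0.194). H2-Ab1, the beta chain of an MHC class II molecule, had 46.1, 32.1, 20.8, 30.5, 37.2 and 25.1 CPM on vehicle and 32.8 to 36.5 CPM on PMX-53 (SD 0.404 against 0.0495, adjusted p = 0.00271). The mean levels thus nearly coincided and the vehicle mice fell on both sides. Of 18 PPAR-alpha targets 2 passed with less spread, against 0.54% of all genes: Plin2 (SD 0.109 against 0.602, adjusted p = 0.0247) and Acot2, an acyl-CoA thioesterase of mitochondria (0.0697 against 0.499, adjusted p = 0.0357), and without diabetic vehicle replicate 1, the lowest for most of the list, 0 passed. Of 23 complement genes 2 passed, against the same 0.54%: Cfi (adjusted p = 0.00801) and C4b (0.0295), the second uncertain because C4a is a near-identical copy. Vat1 (adjusted p = 0.00506) and the ciliary gene C2cd3 (0.0472) also passed, C2cd3 with 39.7 to 40.4 CPM in the 6 PMX-53 libraries, an SD of 0.00835 against a counting SD of 0.0590. Without diabetic vehicle replicate 4 the adjusted p was 0.0760 for Vat1, whose difference went from -0.228 to -0.140, and 0.0608 for C2cd3. C2cd3 did not pass without any 1 of 10 other libraries either, with 0.0919 the highest, without diabetic PMX-53 replicate 1.

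The 9 genes more spread on PMX-53 included clock and glucose genes. Per2, a core repressor of the circadian clock (chr1:91415982-91459324), had 17.1, 13.1, 33.7, 28.5, 48.3 and 41.6 CPM in diabetic PMX-53 libraries and 41.7 to 53.5 CPM in diabetic vehicle libraries. Replicates 1 to 4 on PMX-53 lay below every vehicle library, with an SD of 0.734 against 0.137 (difference 0.52 ± 0.12, limma adjusted p = 0.00636). Without diabetic PMX-53 replicate 2 the adjusted p was 0.0711. Pck1, the cytosolic PEP carboxykinase of gluconeogenesis, had 616, 794, 1580.5, 1717, 1426 and 664 CPM on PMX-53 and 3072 to 3954 CPM on vehicle (SD 0.669 against 0.120, adjusted p = 0.0170). Slc37a4, the transporter that carries glucose 6-phosphate into the endoplasmic reticulum, was high in the same replicates 3, 4 and 5, with 146, 145, 194, 216, 174 and 142 CPM (SD 0.252 against 0.0685, adjusted p = 0.0233). Without diabetic vehicle replicate 4 the adjusted p of Pck1 was 0.0569 and that of Slc37a4 0.0646. The sulfate transporter gene Slc13a4 fell into the same 2 levels, with 3.66, 4.23 and 4.00 CPM in replicates 3 to 5 and 1.77 to 1.89 CPM in replicates 1, 2 and 6 (adjusted p = 0.0190). Fam114a1 (adjusted p = 0.0300) and Suds3 (0.0357) also passed. The adjusted p was 0.0545 for Slc13a4, 0.0601 for Fam114a1 and 0.0760 for Suds3 without diabetic vehicle replicate 4. Leaving out diabetic PMX-53 replicate 4 gave larger ones, 0.151 for Fam114a1, 0.113 for Slc37a4 and 0.224 for Suds3, whose difference in deviation went from 0.0854 to 0.0560. For 6 of the 9 genes the SD on vehicle lay below the counting SD, as for 14.3% of all genes.

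**Figure D3:**
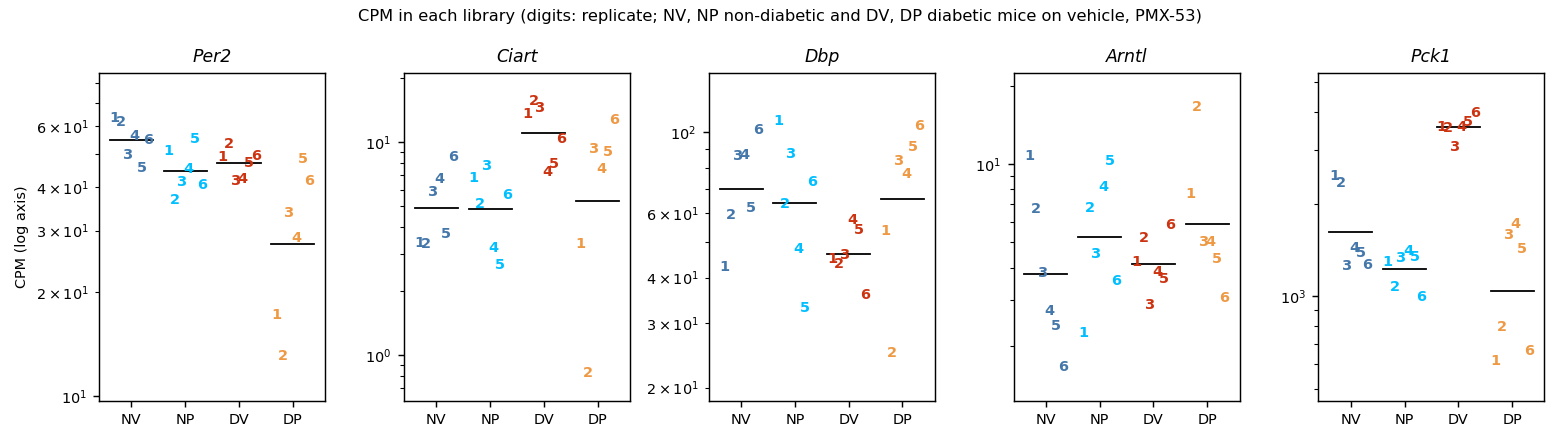
CPM on a log axis of the clock genes Per2, Ciart, Dbp and Arntl and of Pck1 in each library (digits are replicates, lines are geometric means of 6, group letters as in the plot of diabetic vehicle genes). Diabetic PMX-53 replicate 2 is the lowest of its group for Per2 (13.1 CPM), Ciart (0.823 CPM) and Dbp (24.9 CPM) and the highest for Arntl (16.5 CPM).

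In non-diabetic mice most genes again had the smaller SD on PMX-53, but few passed the test. The SD was larger on PMX-53 for 37.5% of genes, with a median log2 ratio of -0.24. By limma 4 genes (0.0284%) were less spread and 0 (0%) more, against 1083 and 257 at an unadjusted p under 0.05. Tcf7l1, a repressor of Wnt target genes, had 1.81 to 5.45 CPM on vehicle and 4.04 to 4.65 CPM on PMX-53 (adjusted p = 0.0306). Triqk had 1.14 to 3.27 and 2.64 to 3.02 CPM (0.0288), Mbtps2, a protease that activates sterol-regulatory transcription factors, 19.1 to 26.8 and 19.0 to 19.9 CPM (0.0363), and Adam22 6.86 to 14.8 and 10.8 to 12.9 CPM (0.0288). For all 4 the SD on PMX-53 was below the counting SD, as for 24% of all genes, and with deviations from the median, squared deviations or only these 2 groups 0 passed. The largest adjusted p with 1 library left out was 0.224 for Tcf7l1 (vehicle replicate 6), 0.245 for Triqk and 0.187 for Adam22 (vehicle replicate 1) and 0.176 for Mbtps2 (vehicle replicate 5). The count ranged from 0 without non-diabetic PMX-53 replicate 1, 4 or 5 to 45 without non-diabetic vehicle replicate 4, with 12 and 25 without vehicle replicate 2 or 3, 1 without PMX-53 replicate 2 or 3, 7 without diabetic vehicle replicate 1 or diabetic PMX-53 replicate 3, 2 without diabetic vehicle replicate 2 or 3, and 0 without diabetic PMX-53 replicate 4.

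Between diabetic and non-diabetic mice on PMX-53, the SD was larger in diabetic mice for 58.5% of genes (median log2 ratio 0.16), and limma called 0 genes (0%) more and 0 (0%) less spread. At an unadjusted p under 0.05 there were 701 more and 346 less, and the smallest adjusted p was 0.0511. That value belonged to Hspa1b, an inducible heat shock chaperone, with 14.7, 12.6 and 21.6 CPM in non-diabetic PMX-53 replicates 4 to 6 and 3.26 to 4.00 CPM in replicates 1 to 3, against 4.13 to 6.53 CPM in diabetic PMX-53 libraries. It belonged also to Fcgbp, a mucin-like protein chosen after its values were seen, with 23.5 CPM in non-diabetic PMX-53 replicate 6, the library with the raised urothelial markers, and 0.306 to 1.15 CPM in the other 5. Thbs1, thrombospondin 1, was likewise highest in non-diabetic PMX-53 replicates 4 to 6, at 92.9 to 111 CPM, against 51.6 to 62.1 CPM in replicates 1 to 3 (adjusted p = 0.221). Kif3b (0.149), Sfxn1 (0.149), Slc37a4 (0.157), Per2 (0.221), Psd (0.425) and Ccdc14 (0.425) had the next smallest p in either direction. Leaving out 1 library gave 0 to 4 genes, with 4 without diabetic PMX-53 replicate 1 or 5.

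The interaction, the change in spread with PMX-53 in diabetic mice minus that in non-diabetic mice, passed for 2 genes in the positive direction (0.0142%) and 1 in the negative (0.0071%), all by limma. Foxq1, the negative one (adjusted p = 0.0310), had SDs of 0.0824, 0.155, 0.644 and 0.0753 in non-diabetic vehicle, non-diabetic PMX-53, diabetic vehicle and diabetic PMX-53 libraries. The SD from counting alone was 0.168, 0.159, 0.108 and 0.167, so only the diabetic vehicle SD exceeded it. It did not pass without any 1 of 13 libraries, with the largest adjusted p (0.161) without diabetic vehicle replicate 3. The gene model Gm6542 (0.0250) lay at 0.329 to 1.59 CPM. At an unadjusted p under 0.05 there were 606 and 678 genes, and 0 passed without any 1 of non-diabetic vehicle replicate 5, non-diabetic PMX-53 replicate 4 or diabetic vehicle replicate 3. The count was 1 without non-diabetic vehicle replicate 3 or diabetic PMX-53 replicate 2, and 5, 7, 10 and 11 without non-diabetic PMX-53 replicate 1 and diabetic vehicle replicates 1, 5 and 6.

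A few programmes that varied together within groups are described, and other variable lists are not described in full. The first was the list of PPAR-alpha targets, whose link to feeding in these mice was not tested. The 18 measured of 20 PPAR-alpha targets had a median SD of 0.293 in non-diabetic vehicle, 0.293 in non-diabetic PMX-53, 0.427 in diabetic vehicle and 0.141 in diabetic PMX-53 libraries, which was 2.67, 3.47, 3.37 and 1.34 times that of genes at the same level. Members correlated at a median of 0.814, 0.855, 0.759 and 0.431 over 6 libraries, against about 0 over all genes. In non-diabetic vehicle mice 16 of 18 were highest in replicate 5 and 14 lowest in replicate 6. In non-diabetic PMX-53 mice 15 were highest in replicate 5 and 16 lowest in replicate 2, against 17.7% and 13.0% of all genes. In diabetic vehicle mice 14 were highest in replicate 3 and 15 lowest in replicate 1, against 17.4% and 19.2% of all genes. Without the extreme library the median SD was 0.180 in non-diabetic vehicle mice (replicate 5) and 0.298 in diabetic vehicle mice (replicate 1).

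Pdk4, a mitochondrial kinase that inhibits pyruvate dehydrogenase in fasting, had 66.2, 64.4, 63.8, 102, 251 and 40.7 CPM in non-diabetic vehicle libraries. It had 43.9, 17.2, 34.6, 56.8, 204 and 86.6 CPM in non-diabetic PMX-53, 25.5, 151, 296, 120.3, 172 and 161 CPM in diabetic vehicle, and 20.1 to 38.6 CPM in diabetic PMX-53 libraries. Replicate 5 was thus the highest of both non-diabetic groups. Cyp4a14, a fatty acid hydroxylase, spanned 19.2 to 211 CPM in non-diabetic vehicle and 18.2 to 177 CPM in non-diabetic PMX-53 libraries, and it too was highest in replicate 5 of both. Angptl4, an inhibitor of lipoprotein lipase, had an SD between 0.405 and 0.557 in all 4 groups. Cyp4a14 is also on the list of 6 female-biased kidney genes. In the same order of groups, that list had 4.43, 3.36, 4.53 and 3.63 times the SD of genes at the same level. Its members correlated at a median of 0.528, -0.0187, 0.419 and 0.332. The 5 measured genes of medulla and papilla had 3.79 and 3.10 times that SD in non-diabetic and diabetic PMX-53 libraries, with correlations of 0.337 and -0.250.

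The second was the list of glucocorticoid-responsive genes. The 12 glucocorticoid-responsive genes had a median SD of 0.667 in non-diabetic vehicle, 0.528 in non-diabetic PMX-53, 0.528 in diabetic vehicle and 0.286 in diabetic PMX-53 libraries, 4.95, 4.59, 4.39 and 2.51 times that of genes at the same level. Of the 12, 10 were highest in non-diabetic vehicle replicate 1, 7 in non-diabetic PMX-53 replicate 5, and 7 were lowest in diabetic vehicle replicate 4 and 7 in diabetic PMX-53 replicate 2. Of all genes, 18.6%, 17.7%, 21.9% and 18.3% were so. Members correlated at a median of 0.698, 0.798 and 0.497 in non-diabetic vehicle, non-diabetic PMX-53 and diabetic vehicle libraries. Pdk4 and Angptl4 belong to this list and to the PPAR-alpha targets, and Per1 to this list and to the clock genes. Zbtb16, a zinc finger factor induced by glucocorticoids, had 76.6, 20.5, 14.7, 9.08, 5.08 and 8.96 CPM in non-diabetic vehicle libraries. In diabetic vehicle libraries it had 118, 134, 57.2, 23.5, 24.2 and 118 CPM. Fkbp5, a cochaperone that dampens the glucocorticoid receptor, followed it with 246, 123, 69.9, 89.4, 58.6 and 97.5 CPM in non-diabetic vehicle libraries and 240.0, 193, 126, 79.1, 99.5 and 181 CPM in diabetic vehicle libraries. Both genes were thus high in replicate 1 of the non-diabetic and in replicates 1, 2 and 6 of the diabetic vehicle mice, which were also the high replicates of Arrdc2, Arhgef3 and Cdc37l1. The whole list did not share this in diabetic vehicle mice. Pdk4 was lowest in replicate 1 of that group, and 3 of 12 members were highest in its replicate 6. The metallothionein gene Mt2 spanned 10.8 to 51.4 CPM and Map3k6 2.87 to 13.0 CPM in non-diabetic vehicle libraries, and Hif3a 2.50 to 15.2 CPM in diabetic vehicle libraries. In none of the 4 pairwise comparisons did a member pass for spread.

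**Figure D4:**
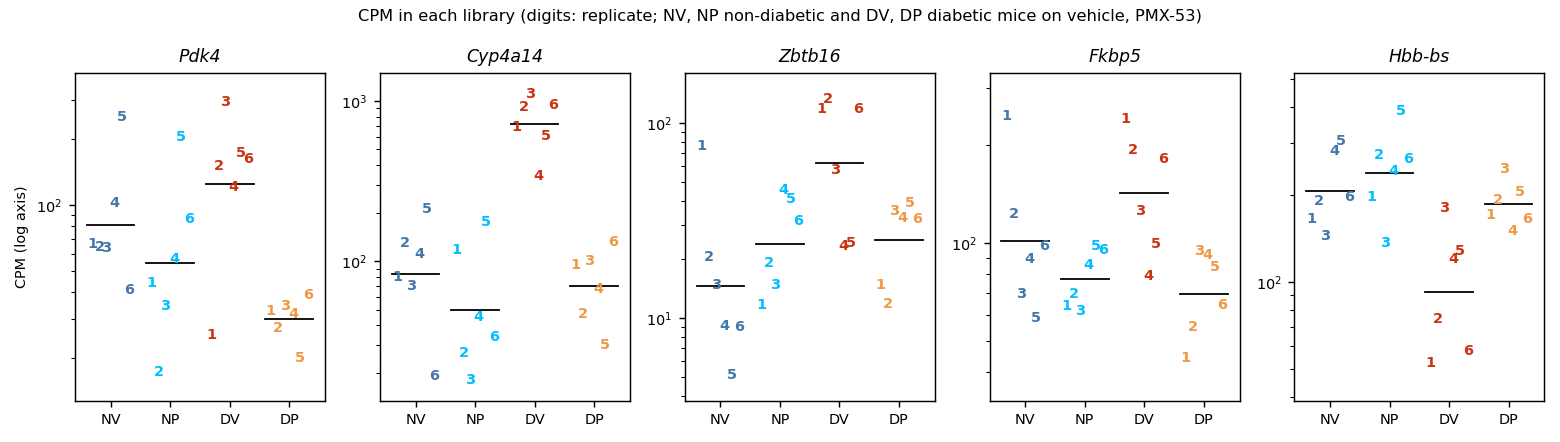
CPM on a log axis of Pdk4, Cyp4a14, Zbtb16, Fkbp5 and the beta-globin gene Hbb-bs in each library (digits are replicates, lines are geometric means of 6, group letters as in the plot of diabetic vehicle genes). Non-diabetic vehicle replicate 5 is the highest of its group for Pdk4 (251 CPM) and Cyp4a14 (211 CPM), and replicate 1 for Zbtb16 (76.6 CPM) and Fkbp5 (246 CPM).

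The third was the circadian clock, with activator and output genes in opposite phase. The 19 clock genes had a median SD of 0.186 in non-diabetic vehicle, 0.269 in non-diabetic PMX-53, 0.240 in diabetic vehicle and 0.354 in diabetic PMX-53 libraries, 1.83, 2.86, 1.58 and 3.20 times that of genes at the same level. In the last group 16 of 19 had more than 2 times the SD of genes at the same level, against 6.97% of all genes. Of the 19, 11 were lowest in replicate 2, against 18.3% of all genes, and members correlated at a median of 0.410. Arntl, which encodes BMAL1, the activating arm of the clock, had 7.65, 16.5, 5.00, 5.00, 4.31 and 3.06 CPM there. Dbp, an output gene that BMAL1 and CLOCK drive, had 53.6, 24.9, 83.2, 77.0, 91.0 and 104 CPM, so its highest and lowest replicates were the lowest and highest of Arntl. Ciart had 3.33, 0.823, 9.30, 7.53, 9.04 and 12.7 CPM and Npas2, a partner of BMAL1, 12.9, 14.5, 5.11, 6.06, 3.57 and 3.30 CPM. The same opposition was seen in non-diabetic vehicle replicate 1, with the highest Arntl (10.8 CPM against 1.66 to 6.69) and the lowest Dbp (42.7 CPM against 59.3 to 101). Non-diabetic PMX-53 replicate 5 showed it too, with 10.3 CPM of Arntl and 33.1 CPM of Dbp. Non-diabetic vehicle replicate 1 was also the library in which 10 of 12 glucocorticoid-responsive genes were highest. Only Per2 passed the test for spread, in diabetic mice, so the order of the 4 medians was not shown to differ.

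Cish and Bcl6, which respond to the transcription factor STAT5 in opposite directions, also moved against each other. Cish, a feedback inhibitor induced by STAT5, had 5.90 and 11.4 CPM in non-diabetic vehicle replicates 1 and 2 and 48.2 to 64.3 CPM in the other 4. Bcl6, a repressor that STAT5 activity switches off, had 51.1 and 73.2 CPM in the same 2 libraries and 12.0 to 26.9 CPM in the others. In non-diabetic PMX-53 mice replicate 2 had the lowest Cish (8.21 CPM) and the highest Bcl6 (74.9 CPM). In diabetic vehicle mice both varied less, with 14.9 to 32.1 CPM of Cish and 8.56 to 16.4 CPM of Bcl6. Diabetic PMX-53 mice did not share this, with an SD of 1.07 for Cish and 0.833 for Bcl6, against 0.387 and 0.403 in diabetic vehicle mice. The smaller SD of Cish in diabetic vehicle than in non-diabetic vehicle mice, 0.387 against 1.45, did not pass (limma adjusted p = 0.180).

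Red blood cell genes formed a further block. The 6 measured red blood cell genes had a median SD of 0.368, 0.470, 0.704 and 0.272 in non-diabetic vehicle, non-diabetic PMX-53, diabetic vehicle and diabetic PMX-53 libraries, and correlated at 0.845, 0.977, 0.978 and 0.820. All 6 were highest in non-diabetic PMX-53 replicate 5 and in diabetic vehicle replicate 3, and all 6 were lowest in non-diabetic PMX-53 replicate 3. Hbb-bs, the adult beta-globin, had 196, 273, 136, 242, 388 and 264 CPM in non-diabetic PMX-53 libraries and 52.5, 74.2, 180.1, 119, 128 and 57.7 CPM in diabetic vehicle libraries. Alas2, the first enzyme of haem synthesis in red cell precursors, followed with 4.27, 6.11, 14.8, 11.4, 11.1 and 5.51 CPM in diabetic vehicle libraries. The globin genes are near-identical copies whose counts are uncertain, whereas Alas2 has no such copy. None of the 6 passed for a difference in spread.

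Immune and matrix programmes varied with single libraries. The 7 MHC class II genes had a median SD of 0.404 in diabetic vehicle against 0.154, 0.135 and 0.196 in non-diabetic vehicle, non-diabetic PMX-53 and diabetic PMX-53 libraries. In diabetic vehicle mice 6 of 7 were highest in replicate 1, against 18.0% of all genes, and 1, H2-Ab1, was called more spread than in non-diabetic vehicle mice (limma adjusted p = 0.0454), against 1.09% of all genes. Of 26 interferon response genes 17 were highest in the same replicate 1. Of 17 immediate early genes, which respond within minutes to handling or hypoxia, 14 were highest in diabetic vehicle replicate 6 and 12 in non-diabetic PMX-53 replicate 5. Of all genes, 15.7% and 17.7% were highest there. Of 27 collagen and matrix genes 22 were highest in diabetic PMX-53 replicate 2, the library with the fewest counts. In non-diabetic vehicle replicate 6, 20 of them were lowest, against 17.3% of all genes. Podocyte markers summed to 439 CPM in diabetic PMX-53 replicate 6 and 298 to 405 CPM in the other 5, with 7 of 10 highest there.

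**Figure D5:**
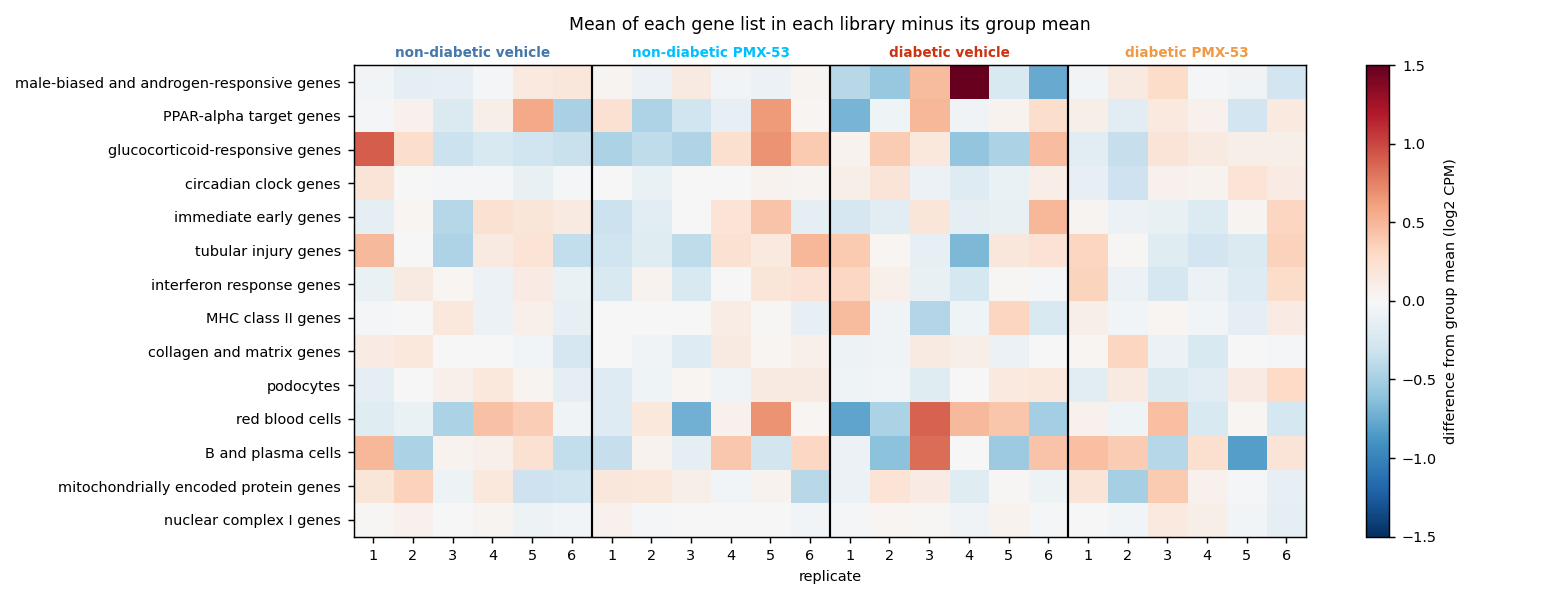
Mean of 14 gene lists in each of the 24 libraries minus the mean of its group, in log2 CPM (red above, blue below the group mean; columns are replicates 1 to 6 of each group). The darkest cell is the male-biased list in diabetic vehicle replicate 4 (1.50), while the glucocorticoid list peaks in non-diabetic vehicle replicate 1 (0.91) and the PPAR-alpha list in non-diabetic PMX-53 replicate 5 (0.64).

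In non-diabetic vehicle mice, ribosomal RNA and a small nuclear RNA were lowest in the same 2 libraries. Lars2 encodes a mitochondrial leucyl-tRNA synthetase. The annotation places it beside the ribosomal-RNA-like gene Gm15564, so its counts are uncertain. Lars2 had 1030.3, 2887, 663, 2306, 56.3 and 67.2 CPM in non-diabetic vehicle replicates 1 to 6. Ribosomal RNA took 20.8% and 19.8% of the counts in replicates 5 and 6, and 21.8% to 24.3% in the other 4. The mitochondrial ribosomal RNA mt-Rnr1 was lowest in the same 2 libraries, as were mt-Nd2, at 1859 and 1926 CPM against 2472 to 4145, and the small nuclear RNA Rn7sk, at 1828 and 2316 CPM against 3219 to 5296. Of the 13 mitochondrially encoded protein genes 7 were described, and they correlated at 0.823 to 0.974 within the 4 groups. The other 6 had 0 to 2 counts in every library and are not described. In diabetic PMX-53 mice all 7 were lowest in replicate 2. With an SD of 2.48, 2.23, 1.49 and 1.48, Lars2 had over 7 times the spread of genes at its level in each group, and its part in the other results was not tested.

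A separate set of 500 genes, those most variable in the group itself, was taken in each group, and its main axis is described. The axes rest on different genes and were not compared between groups. This main axis held 48.5% of the variance of its set in non-diabetic vehicle and 47.0% in non-diabetic PMX-53 libraries. In diabetic vehicle and diabetic PMX-53 libraries it held 51.4% and 38.0%. In diabetic vehicle mice it ran from replicate 4, with a score of 18.6, to replicate 1 at -10.9, with Slco1a1, Pzp, Kap, Acsm3, Slc7a13 and Itih2 at one end and Arhgef37, Hif3a, Nfil3, Fgg, C3 and Ugt1a2 at the other. Pzp, a protease inhibitor, had 55.2 CPM in replicate 4 and 1.43 to 5.93 CPM in the other 5, against 33.5 to 64.4 CPM in diabetic PMX-53 libraries. In non-diabetic vehicle mice it ran from replicate 5 (12.9), with Cish, Egr1 and Cyp26b1 at its end, to replicate 1 (-11.4), with Bcl6, Zbtb16, Arntl and Lars2 at the other. In non-diabetic PMX-53 mice replicate 6 stood at 14.2, with Serpina3g, Hspa1b and Lcn2 at its end. In diabetic PMX-53 mice replicates 1 and 6, at 8.72 and 9.83, stood against the other 4.

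That last split was sharp in a few tubule genes. Rarres2, which encodes the adipokine chemerin, had 70.7 and 68.2 CPM in diabetic PMX-53 replicates 1 and 6 and 12.2 to 15.2 CPM in the other 4. Slc51a, a subunit of the basolateral bile acid and steroid transporter, had 114 and 119 CPM against 27.5 to 39.8 CPM, whereas the monocarboxylate transporter family member Slc16a14 had 20.4 and 17.0 CPM against 47.7 to 87.8 CPM. Carbonic anhydrase 3, Car3, followed Slc16a14 with 2.78 and 2.57 CPM against 8.65 to 14.2 CPM. The same 4 genes split other groups: in non-diabetic vehicle mice replicate 5 stood alone, with 93.3 CPM of Rarres2 against 14.2 to 21.3, 152 CPM of Slc51a against 48.7 to 67.3, 37.2 CPM of Slc16a14 against 82.2 to 121 and 6.46 CPM of Car3 against 19.1 to 26.3. In non-diabetic PMX-53 mice replicates 5 and 6 took that place, with 56.9 and 45.3 CPM of Rarres2 against 15.0 to 23.8. Replicate 5 of both non-diabetic groups was also the library in which most PPAR-alpha targets were highest, as given above.

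Genes that stood out for their spread mostly did so in 1 group. More than 3 times the SD of genes at the same level was found for 264 genes in non-diabetic vehicle, 353 in non-diabetic PMX-53, 413 in diabetic vehicle and 262 in diabetic PMX-53 libraries. Of the 789 genes over that limit in at least 1 group, 475 were over it in exactly 1 group and 50 in all 4. The 50 included Zbtb16, Fkbp5, Sgk1, Pdk4, Angptl4 and Cyp4a14, each from the glucocorticoid-responsive or the PPAR-alpha target list. Among them were also the transporters Slc51a, Slc16a14, Slc7a12 and Slco1a1, and the vitamin D and retinoid hydroxylases Cyp24a1 and Cyp26b1. The immunoglobulin genes Igha and Igkc, the globins Hba-a1 and Hba-a2, renin (Ren1) and C3 were there too. This limit is a description with no test.

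The targets of the inhibitor gave little to read. C5ar1, the receptor that PMX-53 blocks, had 5 to 38 counts per library and 411 in all, with an SD of 0.801, 0.266, 0.516 and 0.614 in non-diabetic vehicle, non-diabetic PMX-53, diabetic vehicle and diabetic PMX-53 libraries. The SD from counting alone was 0.369, 0.336, 0.355 and 0.374. With PMX-53 in non-diabetic mice the spread differed by -0.48 ± 0.20 (SE) in deviation, which did not pass (limma adjusted p = 0.405), nor did any of the other 3 comparisons (0.649 to 0.996). C5ar2, the second C5a receptor, and Hc, the gene of C5, had 139 and 26 counts in all 24 libraries and fell below 1 CPM. C3 had 162 to 8234 counts per library, and its SD on PMX-53 in diabetic mice was 0.865, with 60.1 CPM in replicate 6 and 45.3 CPM in replicate 1 against 14.3 to 18.6 CPM in the other 4.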

How the data were processed

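RNA of renal cortex (200 ng total RNA, ribosomal RNA depleted, directional library) was sequenced from 24 mice. The deposited values are raw counts per gene, which the authors made with bcl2fastq 2.20.0.422 and STAR on GRCm38, per the submitters' processing notes. For the annotation, the counter, strandedness in counting and the release of STAR, the sources used here give nothing.

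Counts were scaled by TMM in edgeR 4.0.16 and taken as log2 CPM with a prior count of 2, for the 14082 genes with a mean of at least 1 CPM. Printed CPM are TMM-scaled and relative to the counts of these genes only. Spread was tested with limma 3.58.1 in R 4.3.3 on the absolute deviation of each library from its group mean, scaled for group size, with all 24 libraries in 1 fit and Benjamini-Hochberg adjustment over all 14082 genes (threshold 0.05). On data simulated with known differences in spread, this test gave unadjusted p under 0.05 for unchanged genes more often than the nominal rate, and its adjusted calls held a larger share of false ones than the threshold states, whereas deviations from the median made few calls and none of them false. The p-values speak for the variation among these 24 samples alone. The ratio to genes at the same level divides a gene's SD by the running median over 501 genes ordered by mean. Counting SD is the Poisson error on the log2 scale. Library distances were compared by exact permutation. Positions are GENCODE M21 (GRCm38), and promoters RefSeq GRCm38.p6. Figures were drawn with matplotlib 3.10.9.

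Named genes are, per comparison, up to 8 in each direction with the largest ratio of SDs among those passing, at a mean of at least 2 CPM and without gene-model names, or the 4 smallest p in each direction where none passed. Added to these are the 8 genes with the highest ratio in each group and up to 4 members of the most variable lists. The rule also takes the 6 largest loadings at each end of the first component of the 500 genes most variable in each group. C5ar1, C5ar2, Hc and C3 complete it. Some genes that the rule names are not reported here. Where other genes are named, they are members of a list or were chosen after their values were seen. The members and lists were chosen with earlier results of these data known. Same-numbered libraries of different groups had deviations correlated at -0.171 to 0.173 and were not treated as pairs. Alternatives covered normalization, filters, DESeq2 1.42.0 variance stabilisation, the form of the deviation, thinning to the smallest total, fits of the compared groups only and leaving out each library.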

Additional observations from a re-analysis of the deposited data

Results flagged for a closer look

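Of 180 sets of 6 values screened for a highest or lowest library far from its group, 7 (3.89%) exceeded the Dixon limit, and chance gives about 1 in 20. The value given is the gap to the nearest library as a share of the group's range. Akap9 in non-diabetic vehicle replicate 6 had the largest, at 0.853, and the mean of the 6 female-biased kidney genes was lowest in the same library at 0.721. Suds3 was lowest in non-diabetic vehicle replicate 5 (0.697), at 83.3 CPM against 87.8 to 89.7, and Ugt1a2 highest in non-diabetic vehicle replicate 4 (0.645). In non-diabetic PMX-53 libraries Mbtps2 was lowest in replicate 1 (0.637). In diabetic vehicle libraries Dusp3 was highest in replicate 3 (0.656) and Nhsl2 in replicate 4 (0.637), the second at 47.4 CPM against 44.8 to 45.7. The change in spread with PMX-53 differed between diabetic and non-diabetic mice for Foxq1 (limma interaction, adjusted p = 0.0310), and without diabetic vehicle replicate 4 the adjusted p of Foxq1 was 0.135. Outside the diabetic vehicle group the SD of Foxq1 lay below the SD that counting alone gives.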

How the results depend on the processing

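The counts of genes called for spread depended on the form of the test. For diabetes on vehicle, PMX-53 in diabetic mice, PMX-53 in non-diabetic mice, diabetes on PMX-53 and the interaction in turn, no filter on low counts (30655 genes) gave 4237, 4014, 2544, 2945 and 1636 genes. Squared deviations gave 7, 0 and 0 for the first 3 and 0 for the interaction, and deviations from the median gave 4, 6 and 0, and 0 for the interaction. With only the groups compared in the fit, 0, 0 and 0 passed for the first 3. Thinning gave 131 genes for PMX-53 in diabetic mice, 0 in non-diabetic mice and 0 for the interaction. Scaling by library totals only gave 17 for PMX-53 in non-diabetic mice, 1 for diabetes on PMX-53 and 1 for the interaction. A mean of 10 CPM gave 1 for PMX-53 in non-diabetic mice and 0 for the interaction, and variance stabilisation gave 8 for PMX-53 in non-diabetic mice and 1 for diabetes on PMX-53. With the replicate block 1 gene passed for diabetes on PMX-53, and the block moved no other count by over 1.5 times. Leaving out 1 library gave 90 to 291, 62 to 170, 0 to 45, 0 to 4 and 0 to 11 genes. Apart from the number of genes or libraries, the cause was not tested.

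For the library distance, diabetes on vehicle turned to -0.00471 with library totals only (exact permutation p = 0.812). PMX-53 in diabetic mice gave -0.0188 at 10 CPM or more (exact p = 0.0455), -0.0184 without a filter (exact p = 0.0476) and -0.0288 thinned (exact p = 0.00433). Without a filter PMX-53 in non-diabetic mice gave -0.0196 (exact p = 0.00433) and diabetes on PMX-53 0.0215 (exact p = 0.00216). Leaving out 1 library gave -0.000647 to 0.0196, -0.0264 to -0.0116, -0.0312 to -0.0114 and 0.00658 to 0.0193 for the 4 comparisons, with the reversal without non-diabetic vehicle replicate 4. For Akap9, leaving out 1 library moved the difference in spread with diabetes on vehicle between -0.286 and 0.00789, the latter without non-diabetic vehicle replicate 6.

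The median SD in non-diabetic vehicle, non-diabetic PMX-53, diabetic vehicle and diabetic PMX-53 libraries was 0.190, 0.152, 0.188 and 0.164 with library totals only, 0.119, 0.0939, 0.129 and 0.107 at 10 CPM or more, 0.235, 0.213, 0.245 and 0.229 without a filter, and 0.0958, 0.0804, 0.101 and 0.0898 after variance stabilisation. With edgeR's default filter it was 0.144 in non-diabetic PMX-53 and 0.160 in diabetic PMX-53 libraries. Thinned, it was 0.149 in non-diabetic PMX-53, 0.192 in diabetic vehicle and 0.158 in diabetic PMX-53 libraries. Leaving out 1 library gave 0.136 to 0.160, 0.121 to 0.130, 0.152 to 0.168 and 0.134 to 0.146. With library totals only, non-diabetic vehicle thus exceeded diabetic vehicle libraries. At low depth, genes under 10 CPM carried mostly counting error.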

Other observations

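Stress genes also varied as blocks. The 14 measured genes of the unfolded protein and integrated stress responses had a median SD of 0.341 in non-diabetic vehicle libraries, 2.48 times that of genes at the same level, with 10 of 14 highest in replicate 1, the library that was highest for most glucocorticoid-responsive genes. In non-diabetic PMX-53 libraries 11 of 14 were lowest in replicate 1. Heat shock genes, 10 in all, had 3.05 times the SD of genes at the same level in non-diabetic PMX-53 libraries. Of 7 markers of the distal convoluted and connecting tubule, 5 were highest in non-diabetic vehicle replicate 5 and 5 lowest in replicate 6. B and plasma cell markers, 5 measured of 12, had a median SD of 0.643 in diabetic PMX-53 libraries.

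Ide, the insulin-degrading enzyme (chr19:37268743-37337852), chosen after its values were seen, fell into separate levels within groups. It had 163, 112, 118, 164, 127 and 163 CPM in non-diabetic vehicle libraries and 165, 165, 127, 164, 167 and 157 CPM in non-diabetic PMX-53 libraries. Diabetic PMX-53 libraries had 157, 169, 127, 160.2, 164 and 141 CPM, and all 6 diabetic vehicle libraries lay at 62.8 to 76.7 CPM. Aqp2, the vasopressin-regulated water channel of the collecting duct, had 109.9 CPM in non-diabetic PMX-53 replicate 6 and 29.1 to 42.7 CPM in the other 5.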
